A study of Mus musculus with 5 samples.

Results

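The endogenous small interfering RNA (endo-siRNA) tables of 5 mouse germ line libraries held 212905 entries in all, of which 1267 (0.595%) carried chrUn in their names. These 1267 chrUn entries were taken as they were named, without use of any measured value. chrUn is the name a genome assembly gives to sequence that could not be placed on a chromosome. An entry name holds a running number of 9 digits and, for these entries, that suffix, with no contig, position, repeat or gene. No read sequences or read positions were analysed here. Levels are given in RPM, the estimated reads of an entry for every 1000000 endo-siRNA reads of the same library. Where a table does not list an entry, its level was taken as 0.

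Dicer makes endo-siRNAs out of double-stranded precursors, such as those of inverted repeats, of overlapping sense and antisense transcripts, or of a pseudogene pairing with its parent gene, and Argonaute proteins take them up. In the mouse they are best known from growing oocytes, where retrotransposons and pseudogenes are major sources. Unplaced mouse sequence is rich in repeats and in recently duplicated segments, which is a common reason why it resists placement. A short read from such sequence can match many places at once.

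Each cell type was represented by 1 library, so the differences below have no replicate check and carry no test. Primordial germ cells came from male gonads of 13.5-day fetuses and spermatogonia from testes of 8.5-day-old males, both of strain CD-1. Spermatozoa of mature CD-1 males came from the cauda epididymis and vas deferens, purified on Percoll and by hypo-osmotic shock. The oocyte library was made from 15210 metaphase II oocytes of superovulated C57BL/6 females, 4 to 5 weeks old. The zygote library was made from 15416 zygotes of such females mated with DBA/6J males, 15 to 18 hours after fertilization. Each library pooled cells. Strain and preparation changed together with cell type between the male and egg libraries, and their effects cannot be told apart. The same holds for preparation among the male libraries, and for the paternal strain in the zygote against the oocyte. Primordial germ cells were selected with anti-CD15 beads and spermatogonia by removing the somatic cells that adhered in a short culture.

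Endo-siRNA reads numbered 1216678 for primordial germ cells, 3427374 for spermatogonia, 1370190 for spermatozoa, 25968584 for the oocyte library and 30760735 for the zygote library. A count of 3 reads, the limit that a count of 0 allows, therefore stood for 2.47, 0.875, 2.19, 0.116 and 0.0975 RPM in that order. Low levels could be read far better in the 2 egg libraries than in the male ones. Among miRNAs, the 3 markers of late spermatogenesis summed to 231417 for every 1000000 miRNA reads in spermatozoa and to at most 8245 elsewhere, and the 5 markers of pluripotent and primordial germ cells to 25348 in primordial germ cells and at most 8482 elsewhere. On the same scale 3 other lists were also highest in spermatozoa: 16923 for 3 erythroid markers (123 to 1543 in the other libraries), 3047 for 4 leukocyte markers (29.8 to 540) and 22789 for 5 epithelial markers (1071 to 9934), with no marker of these lists at 0 in spermatozoa. In spermatogonia the 2 gonadal soma markers were highest, at 14981 against 103 to 5723 elsewhere, and so was the 1 endothelial marker, at 6501 against 69.6 to 854. Smooth muscle markers, 2 in number, stood at 233042 in spermatogonia and 230738 in spermatozoa, and at most 26554 elsewhere. The part of these other cells in the chrUn levels was not tested.

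The chrUn entries took a far larger share of endo-siRNA reads in spermatozoa than in any other library. In primordial germ cells they held 0.420% of these reads (exact 95% interval 0.409 to 0.432) and in spermatogonia 0.289% (0.283 to 0.295). Spermatozoa had 4.61% (4.57 to 4.64). In the oocyte the share was 0.359% (0.357 to 0.362) and in the zygote 0.343% (0.341 to 0.346). The intervals cover counting error only, since PCR copies are not independent molecules. In pooled cells, fewer cells that hold an RNA and less of it per cell cannot be told apart. The summed level of the 1267 entries was thus 46080.5 RPM in spermatozoa against 2888 RPM in spermatogonia, a ratio of 16.0 [15.6 to 16.3]. Against primordial germ cells, with 4202 RPM, it was 10.97-fold higher in spermatozoa [10.7 to 11.3].

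How spermatozoa stood to the egg depended on the scale. Endo-siRNAs made up 6.27% of the reads of the 4 reported small RNA classes in spermatozoa but 60.0% in the oocyte and 71.1% in the zygote. For every 1000000 reads of all 4 classes together, the chrUn entries summed to 192 for primordial germ cells, 375 for spermatogonia, 2891 for spermatozoa, 2157 for the oocyte and 2442 for the zygote. In the deposited normalised column the sums were 5002, 6651, 85093, 87479 and 144337. On all 3 scales spermatozoa stood above primordial germ cells and spermatogonia. They stood above both egg libraries by the share of endo-siRNA reads, a little above them over all 4 classes, and below both in the deposited column.

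**Figure D1:**
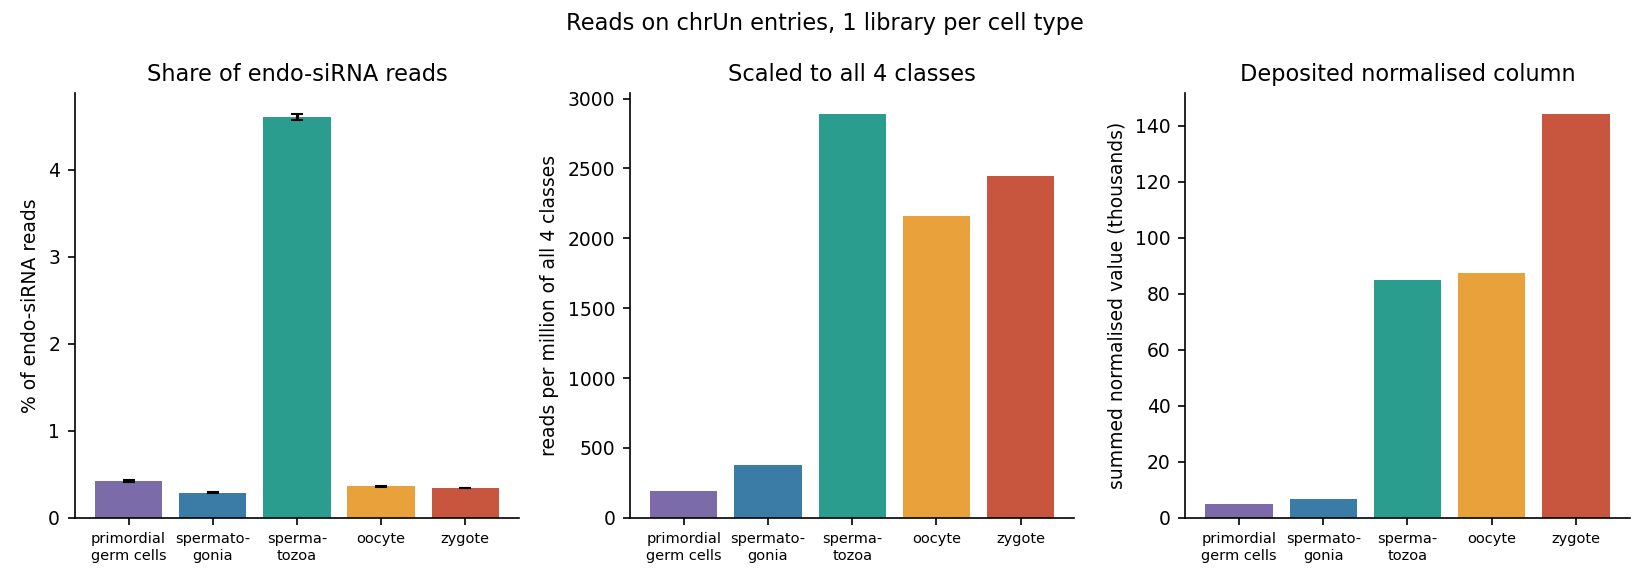
Reads on the chrUn entries in each of the 5 libraries, as % of endo-siRNA reads (bars with exact 95% intervals of counting error), for every 1000000 reads of all 4 small RNA classes, and as the summed normalised value the authors deposited. Spermatozoa lead by share at 4.61%, stand near the egg libraries at 2891 on the scale of all classes, and fall below the zygote in the deposited column.

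A handful of entries carried the spermatozoal share. The 5 chrUn entries with most reads held 65.0% of all chrUn reads in spermatozoa, and 18 entries held 90% of them. In the oocyte the first 5 held 35.8% and in the zygote 30.9%, and 178 and 191 entries were needed for 90%. Primordial germ cells lay nearer to spermatozoa, with 52.5% on the first 5, and spermatogonia nearer to the egg, with 37.3%. Among the other endo-siRNA entries of spermatozoa the first 5 held 17.1%. For primordial germ cells that figure was 10.5%, for spermatogonia 4.46%, for oocytes 26.0% and for zygotes 25.9%. Spermatozoa listed 556 chrUn entries but 98972 others, and the share of a first 5 depends on the size of its set. The chrUn figures and those of the other entries are therefore not directly comparable. Without its 10 leading chrUn entries, the share of chrUn entries in spermatozoa was 0.853%, against 0.129% to 0.201% when each other library lost its own 10.

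**Figure D2:**
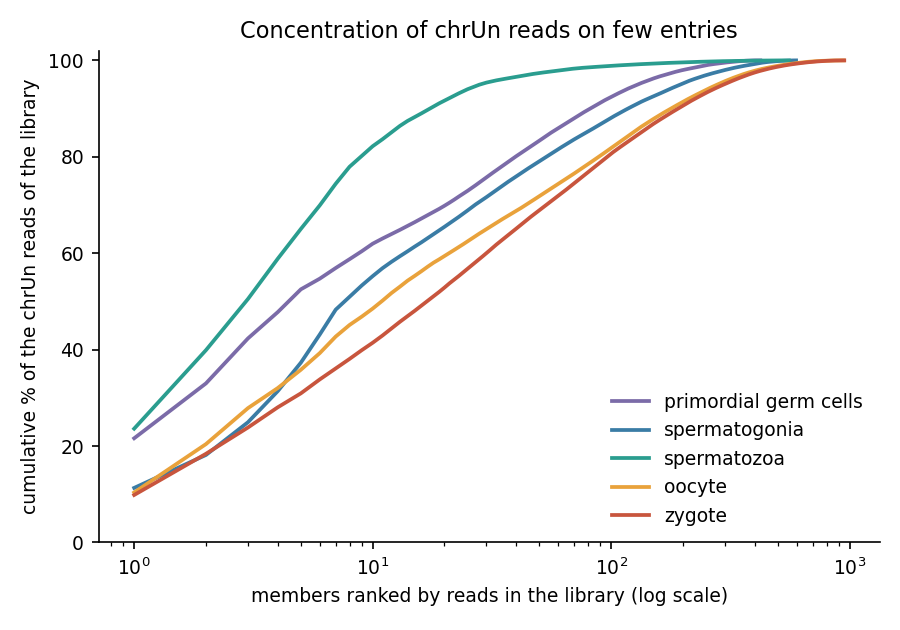
Cumulative % of a library's chrUn reads (y axis) over its chrUn entries ranked by reads (x axis, log scale), 1 line per library. The spermatozoa line rises fastest, reaching 65.0% at 5 entries, while the zygote line reaches 30.9% there.

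Most chrUn entries were thinly covered. The median entry had 15.5 reads over the 5 libraries together, 125 had fewer than 1 read, and 281 (22.2%) had at least 100. Of the other endo-siRNA entries 17.8% had at least 100 reads. Reads were listed for 422 chrUn entries by primordial germ cells, 596 by spermatogonia, 556 by spermatozoa, 944 by the oocyte and 949 by the zygote. These numbers increased in the order of depth. At a level of at least 10 RPM, above the 3-read limit of every library, there were 56, 42, 77, 49 and 56 such entries in the same order. These were 4.42%, 3.31%, 6.08%, 3.87% and 4.42% of the chrUn entries, against 4.36%, 5.36%, 3.04%, 4.78% and 4.85% of the other endo-siRNA entries. At 100 RPM there were 5, 7, 30, 7 and 4 chrUn entries, the most in spermatozoa. The other entries were not counted at that level.

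The 281 entries with at least 100 reads in all were grouped by the library in which their level was highest. Primordial germ cells led 8, spermatogonia 34, spermatozoa 40, the oocyte 83 and the zygote 116. Spermatozoa thus led 14.2% of the chrUn entries and 7.44% of the 37713 other entries with as many reads. Spermatogonia led 12.1% of the chrUn entries and 20.9% of the others, and primordial germ cells 2.85% and 7.47%. The oocyte led 29.5% of the chrUn entries and 32.3% of the others, and the zygote 41.3% and 31.9%. Of the 83 entries led by the oocyte 78 had the zygote second, and of the 116 led by the zygote 112 had the oocyte second. Among the other entries the same held for 91.7% and 92.2%, so this was not particular to the chrUn entries. Under other scalings the number led by spermatozoa stayed between 32 and 40, while the split between oocyte and zygote moved to 12 and 225 in the deposited column. The number led by spermatogonia fell to between 10 and 30, and that led by primordial germ cells to between 1 and 5.

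**Figure D3:**
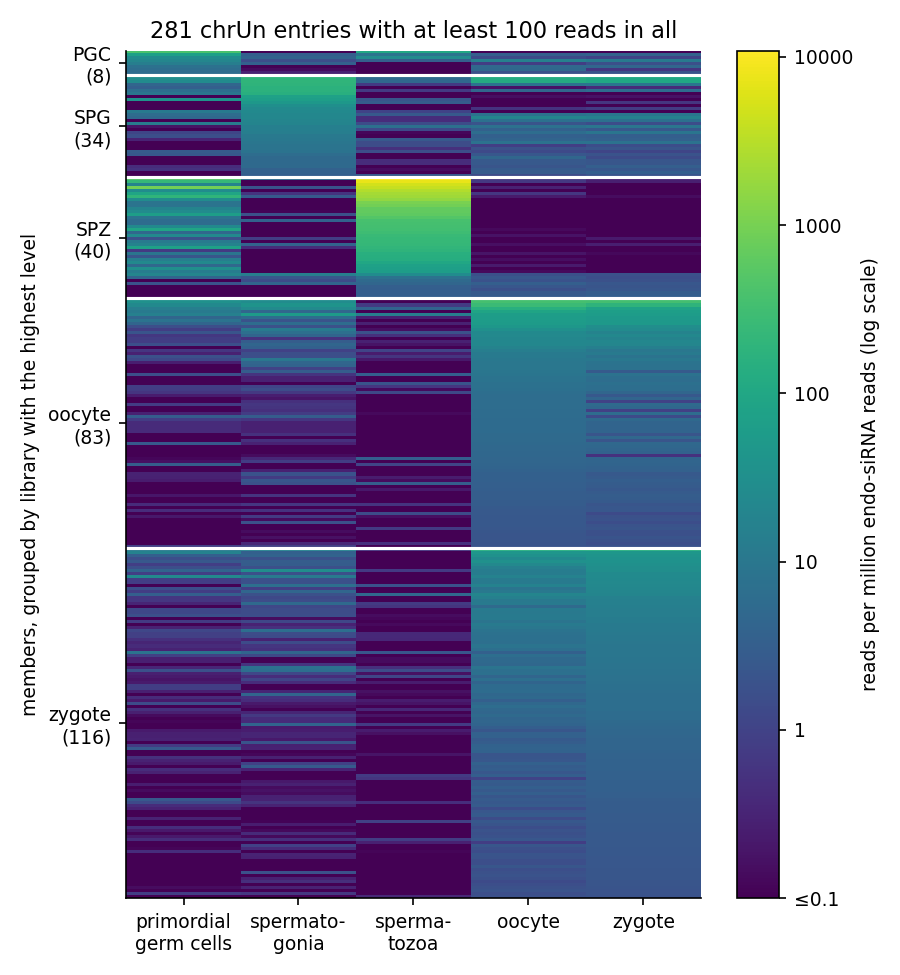
Levels of the 281 chrUn entries with at least 100 reads over the 5 libraries (rows), in RPM on a log colour scale, grouped by the library with the highest level (PGC, primordial germ cells, 8; SPG, spermatogonia, 34; SPZ, spermatozoa, 40; oocyte, 83; zygote, 116). Rows led by spermatozoa reach 10874 RPM and are mostly dark in the oocyte and zygote, while rows led by one egg library are nearly as bright in the other.

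Of the 40 entries led by spermatozoa, 32 were led by them under every scaling tried. These 32 are called the spermatozoal set below. They were picked by their own levels, so their excess in spermatozoa is a description. Each had at least 88 reads there, and their levels ranged from 64.2 to 10874 RPM with a median of 344 RPM. Together they held 95.6% of the chrUn reads of spermatozoa and 4.41% of all its endo-siRNA reads. The other 8 had 4.40 to 39 reads in spermatozoa, or 3.21 to 28.5 RPM.

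The highest chrUn entry of spermatozoa was mmur000925561chrUn. Its level was 479 RPM in primordial germ cells, 5.89 RPM in spermatogonia, 10874 RPM in spermatozoa, 0.669 RPM in the oocyte and 0.271 RPM in the zygote. With 14899.9 reads it ranked 7th of all endo-siRNA entries in spermatozoa. It was 1864-fold higher in spermatozoa than in spermatogonia [1206 to 3052] and 82.0-fold lower in spermatogonia than in primordial germ cells [52.6 to 135]. The entry was thus high in fetal germ cells, low in postnatal spermatogonia and highest in spermatozoa.

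The entry mmur000506747chrUn was likewise highest in spermatozoa, with primordial germ cells second. It stood at 229 RPM in primordial germ cells, 0.0554 RPM in spermatogonia, 7507 RPM in spermatozoa, 0.682 RPM in the oocyte and 0.282 RPM in the zygote. Spermatogonia had 0.19 of a read, so the level of this entry in spermatozoa was at least 8577-fold higher than theirs, taking 3 reads as the limit. That limit, 0.875 RPM in spermatogonia, lies above the oocyte and zygote levels, so the order of these libraries could not be told. Against primordial germ cells, spermatogonia were at least 262-fold lower.

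In primordial germ cells the leading chrUn entry was mmur001459232chrUn, with 1104.58 reads. It had 908 RPM there, 2.04 RPM in spermatogonia, 3849.9 RPM in spermatozoa, 0.308 RPM in the oocyte and 0.0488 RPM in the zygote. Spermatogonia were 445-fold below primordial germ cells [215 to 1109], and spermatozoa 1885-fold above spermatogonia [914 to 4691]. Here the fetal library came within a few-fold of spermatozoa.

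A steeper pattern was seen for mmur000317426chrUn and mmur000506951chrUn. The first had 18.9 RPM in primordial germ cells, no read in spermatogonia, 4891 RPM in spermatozoa, no read in the oocyte and 2 reads in the zygote. The second had 27.9 RPM in primordial germ cells, no read in spermatogonia, 2849.9 RPM in spermatozoa, 2 reads in the oocyte and none in the zygote. Spermatozoa exceeded spermatogonia by at least 5587-fold and at least 3256-fold. Both entries were close to absent from every library but spermatozoa and primordial germ cells.

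Another entry shared by these libraries was mmur000925277chrUn. Primordial germ cells had 199 RPM, spermatogonia 2.63, spermatozoa 2069, the oocyte 0.231 and the zygote 0.146. It was 75.7-fold lower in spermatogonia than in primordial germ cells [39.2 to 168]. For mmur000181450chrUn the levels were 27.6 RPM in primordial germ cells, 0.0554 RPM in spermatogonia, 1623 RPM in spermatozoa, 0.0589 RPM in the oocyte and 0.0107 RPM in the zygote, the last from 0.33 of a read.

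**Figure D4:**
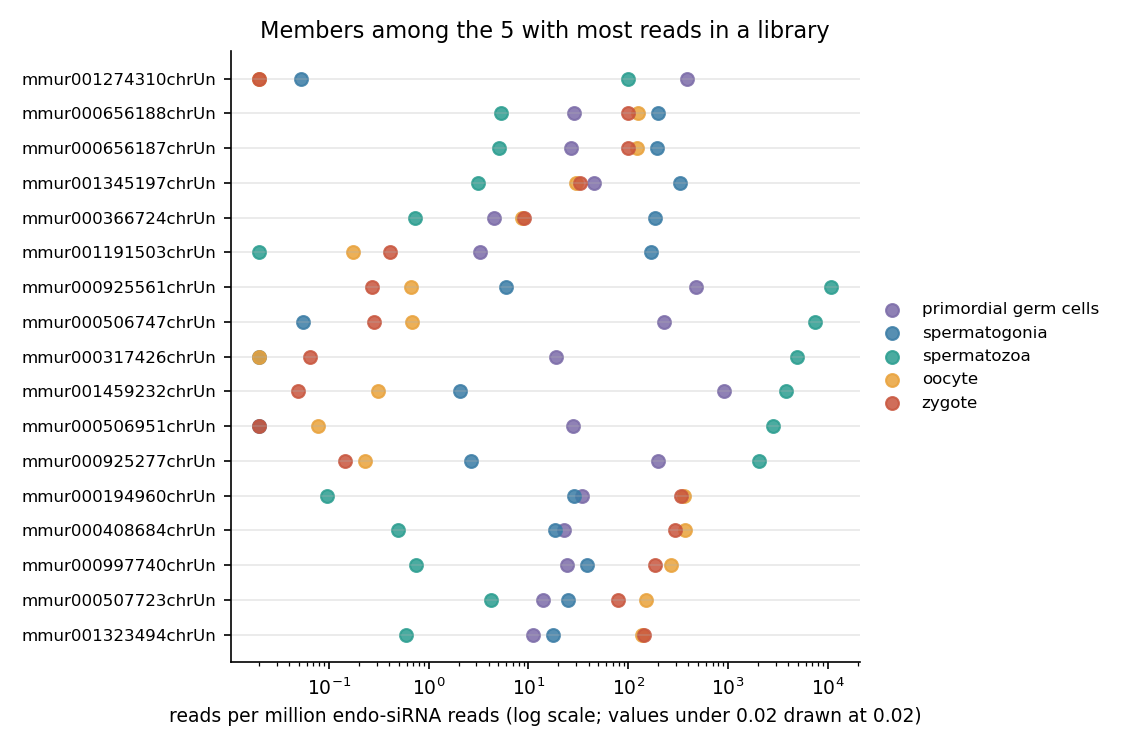
Levels of the 17 chrUn entries that were among the 5 with most reads in a library, in RPM on a log axis, 1 row per entry and 1 point per library, with values under 0.02 RPM drawn at 0.02. In the rows led by spermatozoa the second point is that of primordial germ cells, and the points of oocyte and zygote lie at the low end.

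In RPM, every entry of the spermatozoal set had its second highest level in primordial germ cells. Over all 4 classes and in the deposited column this rank failed for mmur000917248chrUn and mmur000652581chrUn. For the first, primordial germ cells had 7.28 reads and spermatogonia 13.38. The second had 2.18 reads from primordial germ cells, 3 from spermatogonia and 7 from the zygote. All 32 entries were listed by primordial germ cells, 29 of them with at least 3 reads, and they made up 59.2% of the chrUn reads of that library. In spermatogonia 11 had no read, 7 had at least 3, and the set made up 0.789% of the chrUn reads. The summed level was 22.8 RPM in spermatogonia against 2487 RPM in primordial germ cells, 109-fold lower [87.3 to 139]. Over all 4 classes together it was 38.5-fold lower, and in the deposited normalised column 56.5-fold. Over all 40 entries led by spermatozoa, spermatogonia were 55.6-fold lower [47.3 to 65.7], and 19.6-fold over all 4 classes. Without the 10 entries with most spermatozoal reads, the 30 others that spermatozoa led were 15.2-fold lower in spermatogonia [12.4 to 18.7]. The 2804 other endo-siRNA entries that spermatozoa led also summed lower there, at 19198 RPM in spermatogonia against 210447 RPM in primordial germ cells. A lower sum in spermatogonia was thus not particular to the chrUn entries. On the scale of endo-siRNA reads alone, primordial germ cells came second in 34 of the 40 chrUn entries led by spermatozoa and in 46.4% of the 2804 other endo-siRNA entries that they led.

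A comparison of spermatozoa with spermatogonia entry by entry used the 45 of 1267 chrUn entries with at least 100 reads over both libraries, and counted those at least 4-fold apart. Of these, 31 (68.9%) were higher and 13 (28.9%) lower in spermatozoa. Over all 6137 endo-siRNA entries measured in that pair the direction was the other way, with 15.2% higher and 75.2% lower in spermatozoa. The median log2 ratio was 9.47 over the chrUn entries and -5.13 over all entries. With values under 3 reads set to 3 the medians were 7.72 and -4.14, with the same counts of chrUn entries apart. The 45 entries passed the minimum through whichever library was high, so that they are far apart is in part set by that minimum.

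The entries lowest in spermatozoa in that comparison were mmur001191503chrUn, mmur001469651chrUn and mmur001191502chrUn. For the first, spermatozoa had no read and spermatogonia 171 RPM, at least 78.0-fold lower in spermatozoa. The second also had no read in spermatozoa and 149 RPM in spermatogonia, at least 68.1-fold lower. With 262.83 reads in spermatogonia and none in spermatozoa, mmur001191502chrUn was at least 35.0-fold lower.

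Spermatogonia were set against primordial germ cells over 23 of the 1267 chrUn entries, by the same minimum. Differences of 4-fold or more put 11 (47.8%) higher and 7 (30.4%) lower in spermatogonia, where 53.6% and 13.5% of all 6188 measured entries were. The median log2 ratio was 1.83, against 2.23 over all entries. The summed chrUn level was 2888 RPM in spermatogonia and 4202 RPM in primordial germ cells, a ratio of 0.687 [0.664 to 0.711]. That direction turned when the 10 entries with most spermatozoal reads were left out, at 2876 RPM in spermatogonia and 2203 in primordial germ cells, and it turned under 3 of 4 other scalings.

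The lowest ratio of that comparison belonged to mmur001274310chrUn, which primordial germ cells led. It had 392 RPM in primordial germ cells, 0.0525 RPM in spermatogonia, 100.4 RPM in spermatozoa, 0.0112 RPM in the oocyte and no read in the zygote. Spermatogonia were at least 448-fold below primordial germ cells. The third of the lowest entries, mmur001121777chrUn, had no read in spermatogonia and 113 in primordial germ cells, at least 106-fold lower. Of the 8 entries led by primordial germ cells, mmur001274310chrUn was the only one above 70 RPM there, and mmur000710054chrUn came next with 69.1 RPM.

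On the scale of endo-siRNA reads, spermatogonia led 34 entries, with levels of 3.21 to 327 RPM there, which made up 65.4% of their chrUn reads. In the deposited column they led 10. The first was mmur001345197chrUn, with 45.3 RPM in primordial germ cells, 327 RPM in spermatogonia, 3.13 RPM in spermatozoa, 30.2 RPM in the oocyte and 33.0 RPM in the zygote. Spermatogonia were 7.23-fold above primordial germ cells [5.51 to 9.66], and spermatozoa 112-fold below spermatogonia [43.6 to 412]. All 5 libraries had this entry.

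The pair mmur000656188chrUn and mmur000656187chrUn, with adjacent numbers, had near-equal reads in each library. The first stood at 28.9 RPM in primordial germ cells, 197 RPM in spermatogonia, 5.35 RPM in spermatozoa, 124 RPM in the oocyte and 99.4 RPM in the zygote, and the second at 27.0, 196, 5.10, 123.6 and 99.2 RPM. Whether the 2 entries count the same reads was not tested. Unlike the spermatozoal set, both stood near or above 99 RPM in spermatogonia, oocyte and zygote alike.

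Other entries led by spermatogonia were close to restricted to them at this depth. For mmur001469651chrUn there were 9.86 RPM in primordial germ cells, 149 RPM in spermatogonia and no read in spermatozoa, oocyte or zygote. With 113 reads in spermatogonia and none in the other 4 libraries, mmur001484422chrUn was at least 13.4-fold above primordial germ cells. The adjacent entries mmur001191502chrUn and mmur001191503chrUn had 76.7 and 171 RPM in spermatogonia, and at most 0.406 RPM in the oocyte and zygote. By contrast mmur000366724chrUn had 4.52 RPM in primordial germ cells, 186 RPM in spermatogonia, 0.730 RPM in spermatozoa, 8.63 RPM in the oocyte and 9.12 RPM in the zygote. Between spermatogonia and primordial germ cells it was 37.8-fold higher [17.3 to 103]. mmur001043027chrUn, with no read in primordial germ cells and 47.8 RPM in spermatogonia, was at least 19.4-fold higher.

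The egg libraries led 199 entries between them, which held 81.1% of the chrUn reads of the oocyte and 81.4% of those of the zygote. Their levels were moderate, from 1.89 to 373 RPM in the leading library with a median of 5.88 RPM. In spermatozoa 192 of the 199 had fewer than 3 reads and 111 had none, at a limit of 2.19 RPM. For most of these entries a lower level in spermatozoa could therefore not be measured closely.

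The chrUn entry with most reads over the 5 libraries was mmur000194960chrUn. It stood at 34.8 RPM in primordial germ cells, 28.3 RPM in spermatogonia, 0.0949 RPM in spermatozoa, 360.5 RPM in the oocyte and 338 RPM in the zygote. The zygote was at least 154-fold above spermatozoa, which had 0.13 of a read, and 0.938-fold the oocyte [0.912 to 0.965]. Over the 5 libraries its log2 levels were most like those of mmur000469511 (Pearson r = 0.99988), mmur000208139 and mmur001193551, none of them chrUn entries. Of 12877 entries with at least 500 reads in all, 442 had r above 0.99, so with 5 points likeness of this kind was common.

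Next came mmur000408684chrUn, with 22.5 RPM in primordial germ cells, 18.6 RPM in spermatogonia, 0.489 RPM in spermatozoa, 373 RPM in the oocyte and 293 RPM in the zygote. Its zygote level was 402-fold that of spermatozoa [72.1 to 15884], which had 0.67 of a read, counted as 1. mmur000997740chrUn had 24.4, 38.2, 0.752, 268 and 187 RPM in the same order of libraries. mmur001323494chrUn, in the same order, had 11.2, 17.5, 0.598, 136 and 144 RPM. All of these leading egg entries were lowest in spermatozoa, and none differed by 2-fold or more between zygote and oocyte. For mmur000507723chrUn, with 78.4 RPM in the zygote and 149.7 in the oocyte, the zygote was 1.91-fold lower [1.82 to 2.01].

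Zygote and oocyte differed little over most chrUn entries. Among 232 entries with 100 reads or more in both together, 0 exceeded the oocyte by 4-fold in the zygote and 5 (2.16%) fell below it by as much, where 0.732% and 0.615% of all 33179 measured entries were. The median log2 ratio was 0.08, against -0.01 over all entries. The summed level was 3435 RPM in the zygote and 3594 RPM in the oocyte, a ratio of 0.956 [0.947 to 0.964]. The direction of that small difference turned when reads were scaled to all 4 classes or by the deposited column. Across the 281 entries the Spearman correlation of zygote and oocyte levels was 0.912, and across the 37713 other entries 0.918, as descriptions over entries that share both libraries.

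The 5 entries lower in the zygote all had under 170 reads in the oocyte. mmur000351312chrUn had 0.526 RPM in the zygote and 4.74 in the oocyte, 9.11-fold lower [5.39 to 16.4]. mmur000029387chrUn had 0.590 RPM in the zygote and 4.86 in the oocyte, 8.29-fold lower [5.04 to 14.4]. For mmur000598886chrUn it was 0.902 RPM in the zygote and 6.13 in the oocyte, 6.73-fold lower [4.48 to 10.4]. The other 2, mmur000814212chrUn at 6.23-fold and mmur001104248chrUn at 4.40-fold lower, were named after their values were seen. All 5 had no read in spermatozoa. Reads were near equal for mmur000351312chrUn and mmur000029387chrUn, at 123 and 126 in the oocyte and 16.2 and 18.1 in the zygote. The same held for mmur000598886chrUn and mmur000814212chrUn, at 159 and 163 in the oocyte and 27.8 and 30.9 in the zygote. Whether such entries count the same reads was not tested, so the 5 cannot be taken as independent. At the other end were mmur001004825chrUn, with 3.67 RPM in the zygote and 1.04 in the oocyte, its neighbour mmur001004826chrUn, with 14.9 and 5.43 RPM, and mmur000629844chrUn, with 9.54 and 3.55 RPM. These were 3.53-fold [2.31 to 5.59], 2.74-fold [2.26 to 3.33] and 2.70-fold [2.13 to 3.45] higher in the zygote.

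Set against spermatozoa, the summed level was 3435 RPM in the zygote and 46080.5 RPM in spermatozoa, 13.4-fold lower in the zygote [13.3 to 13.5]. Without the 10 entries with most spermatozoal reads it was 2.39-fold lower [2.34 to 2.44], and in the deposited column the zygote sum was the higher one. Entry by entry, 136 of 182 measured chrUn entries (74.7%) stood 4-fold or more above spermatozoa in the zygote, close to the 78.4% of all 24086 measured entries. A further 31 (17.0%) were lower in the zygote by as much, where 6.1% of all entries were. The median log2 ratio was 3.57, against 3.69 over all entries. Of the 182 entries, 136 had fewer than 3 reads in spermatozoa. With values under 3 reads set to 3, 65 (35.7%) were higher and 31 (17.0%) lower in the zygote, against 42.8% and 6.07% of all entries, and the medians were 1.56 and 1.71. The highest ratios were those of mmur000194960chrUn, mmur000408684chrUn and mmur001109174chrUn, the last at least 31.0-fold higher in the zygote. The lowest were those of mmur000506951chrUn, at least 29222-fold lower in the zygote, mmur000181450chrUn, at least 16643-fold lower, and mmur000317426chrUn, at 75219-fold lower with an interval of 20815 to 621232.

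**Figure D5:**
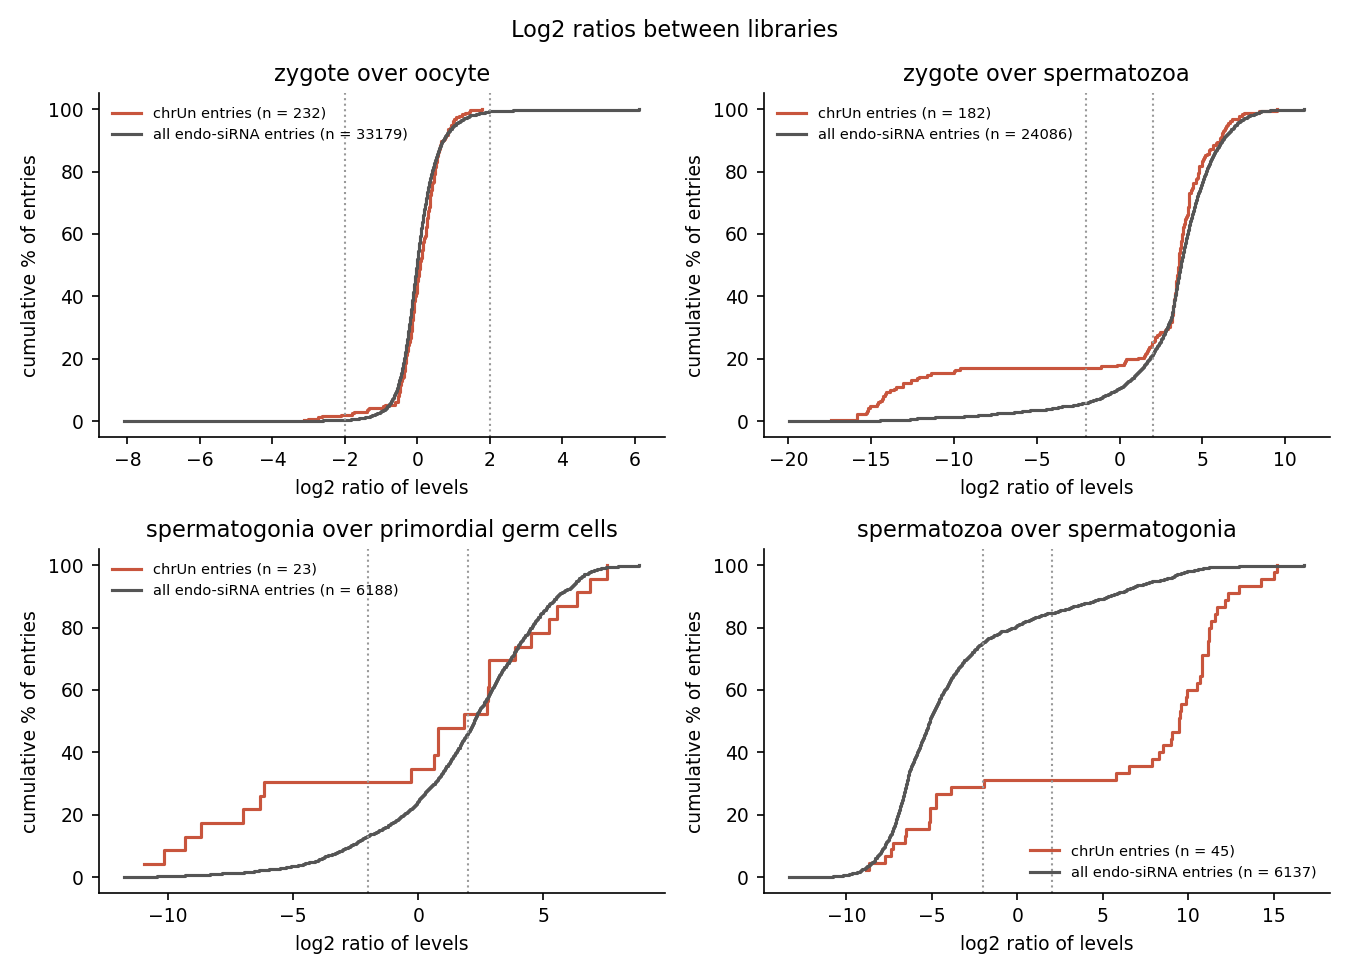
Cumulative % of entries (y axis) by log2 ratio of levels (x axis) in 4 comparisons, for chrUn entries and for all endo-siRNA entries that had 100 reads or more in both libraries together. Dotted lines mark 4-fold differences. In the ratio of spermatozoa to spermatogonia the chrUn line lies to the right, with 68.9% of entries at least 4-fold higher, while for zygote and oocyte both lines rise steeply around 0.

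The 32 entries of the spermatozoal set were nearly absent from both egg libraries. They had 54.83 reads in the zygote and 113.9 reads in the oocyte, or 1.78 RPM in the zygote against 4.39 RPM in the oocyte. Of the 32 entries, 26 had a lower and 4 a higher level in the zygote, and 2 the same level. Only 8 had at least 3 reads in the zygote and 12 in the oocyte, while 15 and 5 had none. Most of these directions thus rest on very few reads or on fractions of a read. The 2804 other endo-siRNA entries that spermatozoa led summed to 12415 RPM in the zygote and 12719 RPM in the oocyte. For the 32 entries the 2 sums were further apart. The sum of the 32 was 2.46-fold lower in the zygote [1.76 to 3.45], 2.07-fold over all 4 classes and 1.42-fold in the deposited column. Over all 40 entries that spermatozoa led, the level was 20.0 RPM in the zygote and 22.8 RPM in the oocyte, 1.14-fold lower [1.02 to 1.28], and over all 4 classes the direction turned, at a ratio of 1.04 [0.928 to 1.17]. The largest single value in the zygote was 8.67 reads. An excess of the 32 entries in the zygote over the oocyte was not detectable at this depth.

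The running numbers of the entries grouped some of the members. Of the 1267 chrUn entries, 397 sat in 159 blocks of 2 to 8 consecutive numbers that were all chrUn, and 870 had no chrUn entry next to them by number. What orders the numbers is not given in the sources used here. Among pairs of adjacent numbers with at least 100 reads in each entry, 49 of 52 pairs of chrUn entries (94.2%) were led by the same library. In pairs of 1 chrUn and 1 other entry it was 87 of 134 (64.9%), and in pairs of other entries 80.0% of 18263.

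A block of 6 runs from mmur000652576chrUn to mmur000652581chrUn, and spermatozoa led all of it. In spermatozoa the reads were 32.9, 410, 655, 1264, 1425 and 330 in number order. Primordial germ cells had 1.45 to 10.4 reads per entry, spermatogonia at most 3, the oocyte at most 0.78 and the zygote at most 7. The block held 6.52% of the chrUn reads of spermatozoa. A second block of 7, from mmur000917242chrUn to mmur000917248chrUn, had 34.98 to 503.73 reads per entry in spermatozoa and none in the zygote. Several entries of both blocks had the same 0.19 of a read in spermatogonia, so the entries of a block cannot be taken as independent.

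Of the 32 entries of the spermatozoal set, 17 had an entry next to them by number: 13 had a chrUn neighbour, 8 had a neighbour of another name, and 2 (6.25%) had a neighbour of another name with at least 100 reads. Such a neighbour was seen for 11 of the 34 entries led by spermatogonia (32.4%) and 84 of the 199 led by the egg libraries (42.2%). The groups follow unlike rules: the spermatozoal set was led by spermatozoa under every scaling, the others by their libraries in RPM alone. The share over all endo-siRNA entries was not counted. The egg libraries were the deepest, and the part of depth in these counts was not tested. The leading egg entry mmur000194960chrUn lay among such entries: mmur000194963 and mmur000194964, without the suffix, had 6891 and 6967 reads in the zygote and 5507 and 5579 in the oocyte, where mmur000194960chrUn had 10402.5 and 9361. In the same way mmur000997742, 2 numbers on from mmur000997740chrUn, had 14274.8 reads in the zygote and 16642.4 in the oocyte, beside 5761 and 6967 for mmur000997740chrUn itself.

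Read values that were not whole numbers were about as common in chrUn entries as elsewhere, apart from spermatozoa. How a read with several matches was counted is not given in the sources used here. In spermatozoa 81.1% of listed chrUn values were not whole, against 71.9% of other entries. In the other libraries the shares were 74.5% to 86.2% for chrUn entries and 75.9% to 84.9% for others. Among the leading entries of spermatozoa, mmur000317426chrUn had a whole number of reads, 6701, and the other 4 of the first 5 did not.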

How the data were processed

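Reads of 18 to 32 nucleotides came from 5 small RNA libraries, and 4 tables per library were deposited, for miRNAs, snoRNAs, piRNAs and endo-siRNAs. The submitters' processing notes list Bowtie 0.12.7, DESeq and mm10 with no roles. The sources used here do not give the annotation sets or the handling of multiply matching reads. The read columns are estimated counts as deposited by the authors, many of them not whole. The other value column, headed TMM per the file headers, is a signal as deposited: within a library it is the read value multiplied by a constant. It served as an alternative and, with the other scalings, to define the spermatozoal set.

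Reads were scaled to 1000000 endo-siRNA reads. Log2 ratios used a pseudocount of 0.5 reads and a minimum of 100 reads in both libraries together. Entries that differed 4-fold or more were counted beside the same count over all endo-siRNA entries. Shares have Clopper-Pearson 95% intervals, and ratios in brackets an exact conditional interval for 2 Poisson counts, with reads rounded to whole numbers (SciPy 1.17.1). Against 0 reads after rounding, a fold is a lower bound from 3 reads in that library. Named entries were the 5 with most reads in each library and the 3 highest and 3 lowest ratios of each of 4 comparisons. Entries of the spermatozoal blocks, entries beside named ones by number, the second entry led by primordial germ cells and the 2 others lower in the zygote were named after their values were seen. Alternatives used TMM factors (edgeR 4.0.16) and size factors (DESeq2 1.42.0), both from rounded reads. The ratio code was tested on simulated data. Members and lists were chosen with earlier results of these data known.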

Additional observations from a re-analysis of the deposited data

How the results depend on the processing

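With the 5 leading entries of every library left out, 17 in all and 0 of them chrUn, the chrUn shares in primordial germ cells, spermatogonia, spermatozoa, oocyte and zygote were 0.484%, 0.309%, 5.59%, 0.489% and 0.468%. With runs of consecutive numbers within 10% of their neighbour counted once, an alternative chosen after seeing the data, they were 0.493%, 0.305%, 5.07%, 0.380% and 0.370%. Counting such runs in file order was not run, since the tables are sorted by reads. The log2 ratio of summed chrUn levels, for zygote over oocyte, was -0.07 as reported, 0.18 with reads scaled to all 4 classes, -0.11 with TMM factors, -0.046 with DESeq2 size factors, 0.72 with the deposited column and -0.037 with runs counted once. For zygote over spermatozoa it was -3.75, and in the same order -0.24, -1.80, -3.66, 0.76 and -3.78, with -3.58 without the 17 entries. For spermatogonia over primordial germ cells it was -0.54, and in the same order 0.96, 0.021, -0.76, 0.41 and -0.69, with -0.65 without the 17 entries. For spermatozoa over spermatogonia it was 4.00, and in the same order 2.95, 2.62, 4.71, 3.68 and 4.06, with 4.18 without the 17 entries. A scaling moves all log2 ratios of a comparison by 1 constant: scaling to all 4 classes moved them by 0.24, 3.50, 1.51 and -1.05 in these 4 comparisons. The cause of the other shifts was not tested. With no minimum beyond 1 read, 87 chrUn entries were at least 4-fold higher and 68 lower for zygote over oocyte, 207 and 347 for zygote over spermatozoa, 104 and 144 for spermatogonia over primordial germ cells, and 236 and 137 for spermatozoa over spermatogonia. At this minimum an entry can be counted on values under 3 reads alone. All endo-siRNA entries were not counted at it, so these numbers show only how the count depends on the minimum. A pseudocount of 5 reads left 36 entries higher in the zygote than in spermatozoa. For zygote over oocyte, 1 entry was higher over all 4 classes, and 5 were higher and 2 lower with the deposited column. The other counts of entries 4-fold apart stayed within 1.5 times the reported ones under these alternatives. Depth limits the male libraries most, where 3 reads stand for up to 2.47 RPM. No paired analysis was possible because each cell type has 1 library.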

Other observations

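Of the 1267 chrUn entries 257 (20.3%) were listed by 1 library alone, against 24.9% of the other endo-siRNA entries. Of the 257, 16 were listed by primordial germ cells, 45 by spermatogonia, 86 by spermatozoa, 52 by the oocyte and 58 by the zygote. Few of these had 10 reads or more: 1, 4, 5, 1 and 1 in the same order, with at most 113 reads, in spermatogonia. The other endo-siRNA entries were not split by library in this way, so the split cannot be called particular to chrUn entries.

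At the other end, 151 entries (11.9%) were listed in all 5 libraries, against 12.9% of the other endo-siRNA entries, and 20 had at least 3 reads in each. One of these, mmur001199344chrUn, had 15.4 RPM in primordial germ cells, 55.9 RPM in spermatogonia, 14.4 RPM in spermatozoa, 62.2 RPM in the oocyte and 62.2 RPM in the zygote. It was the 1 entry with at least 10 RPM in every library, and it was picked for that.

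Between primordial germ cells and spermatozoa the Spearman correlation over the 281 entries with at least 100 reads was 0.474, where that of spermatozoa with spermatogonia was 0.108. Over the other 37713 entries the same correlations were 0.371 and 0.291. Entries share libraries and reads and are not replicates.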
